A study of Mus musculus with 23 samples.

Results

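A set of 9 genes of B cells and lymphoid follicles was followed through the colon RNA-seq libraries of the study. The members, Cd79a, Cd79b, Ms4a1, Pax5, Cr2, Fcer2a, Cxcr5, Cxcl13 and Ccr7, were chosen by gene symbol, and all 9 were present among the 55449 genes of the count table. The mice were male C57BL/6 animals of the genotype Cdx2Apc f/w, 6 to 8 weeks old at the start, in which Cre under a Cdx2 promoter removed 1 floxed Apc allele in the gut epithelium. Every group carried this genotype and ate the same 60% high-fat diet (HFD), and the study's methods describe antibiotics in the drinking water before gavage. Mice received Bacteroides fragilis 638R with either an empty vector (BF638R bsh-, here BF BSHlow) or a vector for bile salt hydrolase, the enzyme that splits conjugated bile acids (BF638R bsh+, here BF BSHhigh). The 23 libraries fell into 6 groups, namely normal colon after 2 weeks (4 BSHlow and 4 BSHhigh), non-tumor colon after 12 weeks (4 and 4) and colon tumors after 12 weeks (4 BSHlow and 3 BSHhigh).

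The libraries held between 12401388 and 17903008 expected counts, which are read counts that RSEM shares out among overlapping transcripts. Levels are given as counts per 1000000 (CPM) after scaling by edgeR's TMM factors over all 23 libraries. The columns of the 3 BSHhigh tumors carried no replicate number and are called a, b and c. The sources did not state whether replicates were separate mice or whether a tumor and a non-tumor library came from 1 mouse, so p-values measured only the spread between libraries. The study calls the 12-week libraries independent samples and also speaks of pooling, without saying whether a library held the RNA of 1 mouse. To describe the tissue, 9 epithelial genes were summed and came to 24868 to 34549 CPM at 2 weeks, 10027 to 14438 CPM in non-tumor colon and 3989 to 8056 CPM in tumors. Much of the difference between 2-week and non-tumor colon was Car1, with means of 12276 and 276 CPM. Epcam averaged 1785 and 1439 CPM there, and Cdh1 1157 and 1368 CPM. The sum is therefore not a measure of epithelial content. In bulk tissue, fewer B cells and less RNA per B cell cannot be told apart.

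B cells carry an antigen receptor whose signal runs through the paired chains Cd79a and Cd79b, and Pax5 is the transcription factor that keeps them B cells. In the colon they gather in lymphoid patches and isolated lymphoid follicles, where follicular dendritic cells and other stromal cells release the chemokine Cxcl13. B cells follow it through its receptor Cxcr5, whereas Ccr7 guides T cells, dendritic cells and B cells towards the T cell zone. Ms4a1 encodes the surface protein CD20, Cr2 the complement receptor CD21 of B cells and follicular dendritic cells, and Fcer2a the low-affinity IgE receptor CD23.

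In the mouse build mm10 the members lay on 8 chromosomes. By GENCODE M21, Cd79a lay at chr7:24897381-24902197 on the plus strand and Cxcl13 at chr5:95956951-95961068 on the plus strand. The minus strand held Cd79b (chr11:106311341-106314762), Ms4a1 (chr19:11249675-11266241), Pax5 (chr4:44524757-44710487), Cr2 (chr1:195136811-195176716), Fcer2a (chr8:3681737-3694175), Cxcr5 (chr9:44511787-44561877) and Ccr7 (chr11:99144196-99155077). Counts were sums over each whole gene. Ms4a1, Pax5 and Cxcr5 overlapped genes on the opposite strand (Bcl9l in the case of Cxcr5), and the sources did not state whether counting used the strand, so reads of these overlaps could not be assigned with certainty.

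Promoter sequence is shown for 3 members that stand for the cell types in the set, a B cell gene (Cd79a), a gene of B cells and follicular dendritic cells (Cr2) and a stromal chemokine (Cxcl13). RefSeq promoter windows on GRCm38.p6 matched 5 of the 9 members, and the bases before the transcription start are printed 5′ to 3′ on the gene's strand, from chr7:24897247-24897380 (Cd79a), chr1:195176720-195176969 (Cr2) and chr5:95956689-95956938 (Cxcl13).
Cd79a: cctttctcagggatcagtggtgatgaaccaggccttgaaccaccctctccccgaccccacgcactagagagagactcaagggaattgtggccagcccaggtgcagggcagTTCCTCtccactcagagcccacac
Cr2: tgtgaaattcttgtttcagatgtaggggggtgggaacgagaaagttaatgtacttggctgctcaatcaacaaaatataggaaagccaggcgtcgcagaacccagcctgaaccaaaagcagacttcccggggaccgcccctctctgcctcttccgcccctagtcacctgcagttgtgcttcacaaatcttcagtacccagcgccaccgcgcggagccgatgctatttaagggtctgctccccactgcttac
Cxcl13: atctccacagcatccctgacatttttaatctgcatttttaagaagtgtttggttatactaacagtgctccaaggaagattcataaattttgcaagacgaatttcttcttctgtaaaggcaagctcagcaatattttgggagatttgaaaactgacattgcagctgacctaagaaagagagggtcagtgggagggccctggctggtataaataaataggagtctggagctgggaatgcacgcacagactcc
Capitals mark the only match found in these windows and those of Pax5 and Fcer2a, a PU box (GAGGAA, here as its reverse complement) in Cd79a. That motif was present in 23.3% of 32851 promoter windows of 250 bases. The octamer ATGCAAAT (1.6% of windows), the EBF core CCCNNGGG (11.8%) and the NF-kB consensus (7.25%) were also searched on both strands, and their letters were not in these windows.

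Except for Ccr7, the members were highest in the non-tumor colon of 12 weeks and lowest in BSHlow tumors. Cd79a averaged 39.3 ± 40.7 CPM (SD, n = 4) in BSHhigh and 29.6 ± 20.2 CPM (n = 4) in BSHlow non-tumor colon. The 2-week colon was lower, at 7.47 ± 6.83 CPM (n = 4) in BSHhigh and 2.45 ± 1.92 CPM (n = 4) in BSHlow mice. Tumors held 2.12 ± 1.77 CPM (n = 3) in BSHhigh and 0.373 ± 0.484 CPM (n = 4) in BSHlow mice. The order BSHhigh non-tumor, BSHlow non-tumor, BSHhigh 2-week colon held for 8 of 9 members, and BSHlow tumors came last for the same 8. Neighbouring groups in this order overlapped, apart from Cd79b and Cr2 between the BSHhigh and BSHlow tumors, so the order between neighbours was within the spread of the libraries.

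**Figure D1:**
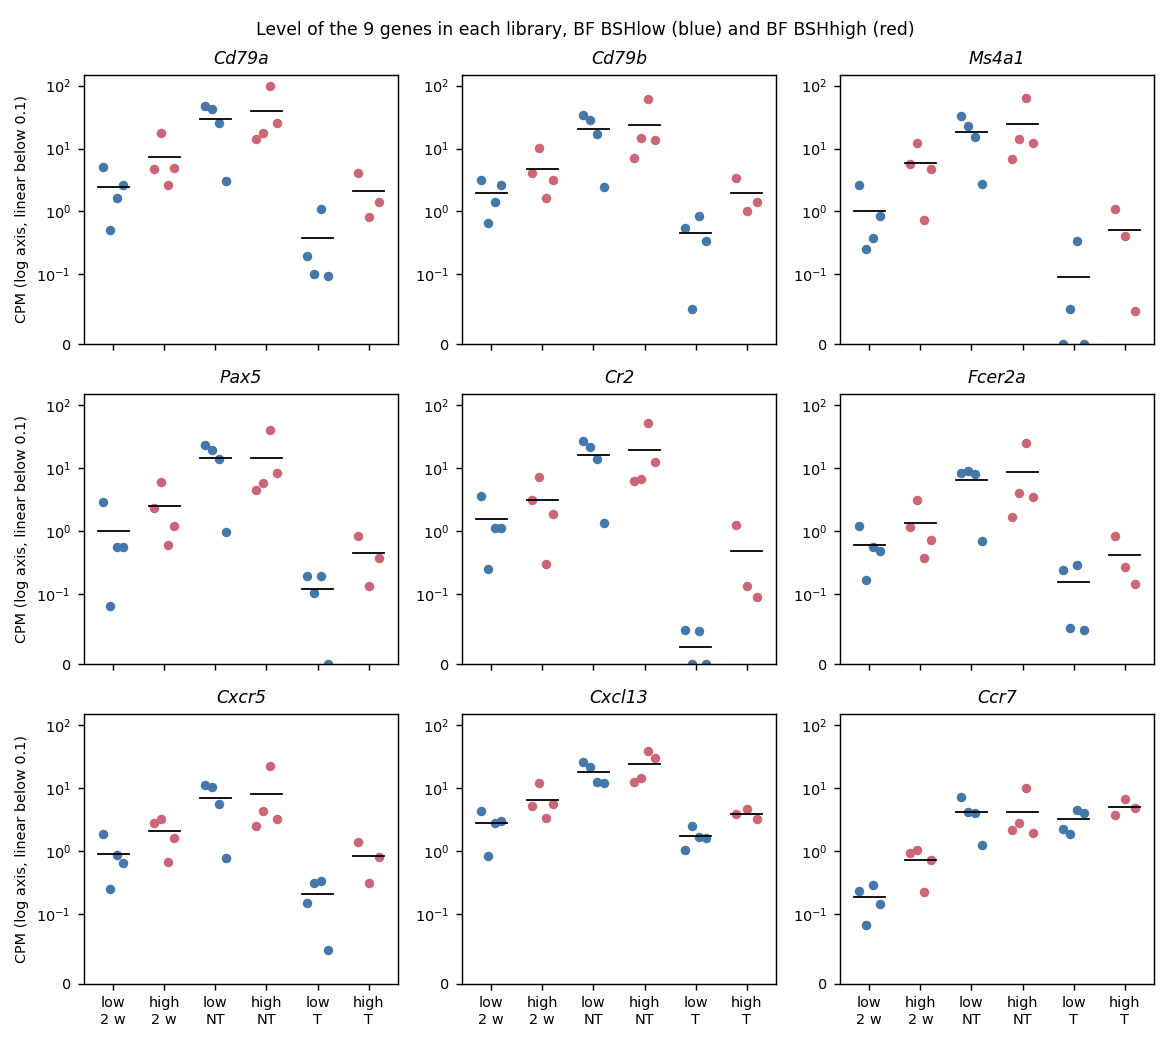
Level of each of the 9 members in the 23 libraries, in CPM (log axis, linear below 0.1), by group (low and high, BF BSHlow and BF BSHhigh; 2 w, 2-week colon; NT, non-tumor; T, tumor). Points are libraries and bars are group means. Apart from Ccr7, every tumor library sits below every non-tumor library of mice with the same bacterium.

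Per kilobase of exon, the scale on which genes can be set beside each other, Cd79a (26.9 CPM per kilobase), Cxcl13 (20.7) and Cd79b (16.7) led in BSHhigh non-tumor colon. Ms4a1 followed at 3.92 and Pax5 was last at 1.65 CPM per kilobase. In BSHlow tumors the order was another, with Ccr7 (1.59 CPM per kilobase) and Cxcl13 (1.48) first and Cd79a at 0.256. Cr2 was last there, at 0.00298 CPM per kilobase.

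The non-tumor colon of 12 weeks was set against the normal colon of 2 weeks to see how the genes stood at an early and a late time of colonization and diet. In BSHlow mice all 9 members were higher at 12 weeks, by a median of 3.40 on the log2 scale. A gene was called where its adjusted p in edgeR's quasi-likelihood test (Benjamini-Hochberg over all genes tested) was under 0.05 and its log2 fold change was over 1 in size. By that rule 9 of 9 members rose, against 17% of 15532 genes, and none fell (8.06% of genes). In BSHhigh mice 7 of 9 rose, with a median of 2.41, against 16.8% of genes, and none fell (7.56%).

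Cd79a measured 5, 0.5, 1.61 and 2.67 CPM in the 4 BSHlow libraries of 2 weeks. At 12 weeks the non-tumor values were 48.0, 42.4, 25.1 and 3.03 CPM. The fourth 12-week library lay inside the 2-week range and the other 3 well above it, for a log2 fold change of 3.56 (SE 0.91, adjusted p = 0.00451). In BSHhigh mice Cd79a measured 4.81, 17.6, 2.60 and 4.89 CPM at 2 weeks. The 12-week values were 14.1, 17.9, 99.9 and 25.2 CPM. Here the second 2-week library reached into the 12-week range, and the log2 fold change was 2.41 (SE 0.82, adjusted p = 0.0237).

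Cxcl13 separated the times more cleanly. It measured 4.32, 0.833, 2.75 and 3.02 CPM at 2 weeks and 25.4, 21.3, 12.2 and 11.9 CPM at 12 weeks in BSHlow colon. In BSHhigh colon it measured 5.08, 12.1, 3.27 and 5.45 CPM at 2 weeks and 12.6, 14.1, 38.5 and 29.9 CPM at 12 weeks. No 2-week library reached a 12-week one in either comparison, with log2 fold changes of 2.68 (SE 0.51, adjusted p = 0.000523) in BSHlow and 1.89 (SE 0.47, adjusted p = 0.00401) in BSHhigh mice. Ccr7 also separated, with group means of 0.184 and 4.13 CPM in BSHlow mice (log2 fold change 4.44, SE 0.75, adjusted p = 0.000208) and of 0.720 and 4.17 CPM in BSHhigh mice (2.55, SE 0.63, adjusted p = 0.00369). Groups did not overlap for 3 of 9 members in BSHlow mice (Ms4a1, Cxcl13 and Ccr7), against 21.6% of genes that were higher without overlap, and for 2 of 9 in BSHhigh mice, against 25.1%.

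Of the other members, Ms4a1 (log2 fold change 4.10) and Pax5 (3.78) rose most in BSHlow mice, and Cxcr5 least (2.93). In BSHhigh mice Ms4a1 (2.08, adjusted p = 0.0506) and Cxcr5 (1.98, adjusted p = 0.0540) did not pass. The BSHhigh count depended on single libraries and fell from 7 to 2 without the third non-tumor library or without the first, the third or the fourth 2-week library. With limma-voom the count was 2 of 9 in BSHlow and 2 of 9 in BSHhigh mice. Each time these 2 were Cxcl13 and Ccr7.

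Further B cell genes were read from a list of 25 that holds no member. In BSHlow mice 20 of the 25 were higher at 12 weeks and none lower, among them Fcmr, the Fc receptor for IgM (log2 fold change 4.41), and Ighd, the IgD heavy chain (3.50). In BSHhigh mice 11 of 25 were higher, led by Fcmr (2.99) and the B cell scaffold Bank1 (2.95). Among 18 follicle and lymphoid organ signals, 12 were higher in BSHlow and 9 in BSHhigh mice. Those included Ccr6, the receptor of Ccl20 (3.35 and 2.51), and Ccl20 itself (1.62 and 1.74).

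Genes of tissue layers moved with the members here. All 6 smooth muscle markers rose at 12 weeks, by a median of 5.54 in BSHlow and 5.29 in BSHhigh mice. Their summed level was 7.08 to 206 CPM at 2 weeks and 1512 to 8468 CPM in non-tumor colon. All 8 macrophage markers rose as well (medians 2.91 and 2.73), while the T cell list had 3 of 10 genes higher and 1 lower in BSHlow mice and 2 higher and 4 lower in BSHhigh mice. Age, time on the diet, time of colonization and the tissue taken (normal against non-tumor colon) cannot be told apart in this comparison, and the part of the tissue layers in it was not tested.

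**Figure D2:**
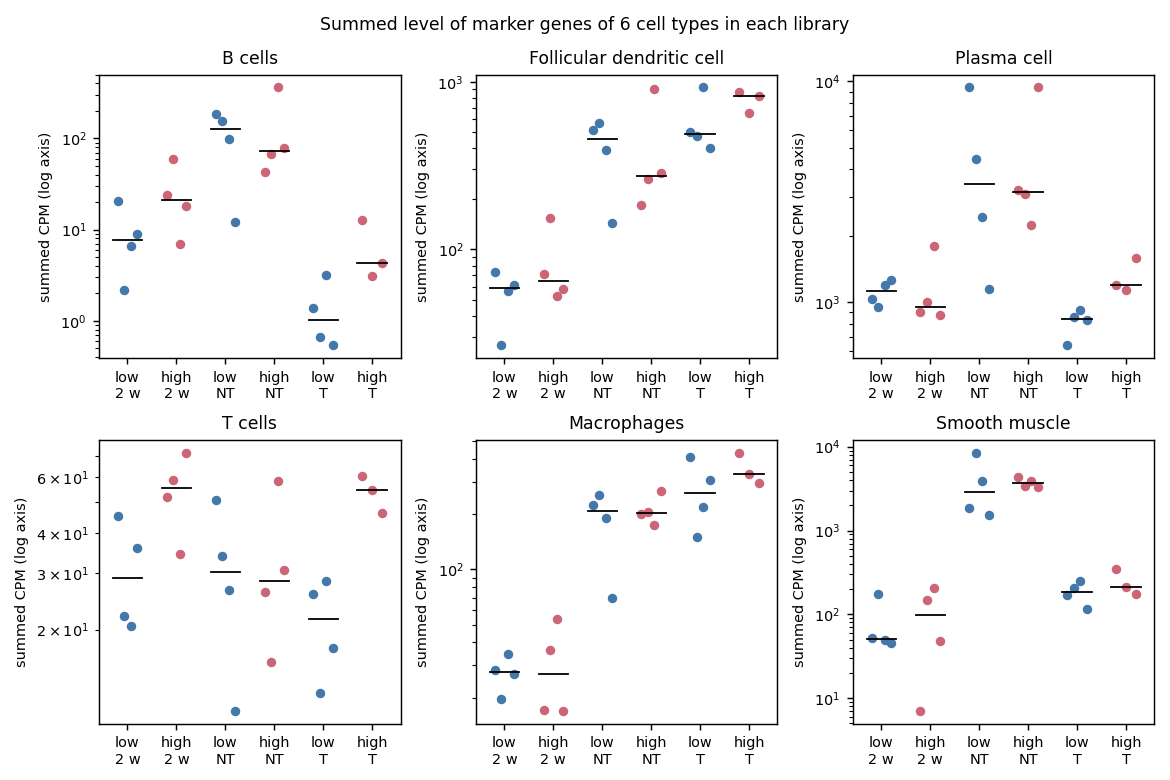
Summed CPM (log axis) of marker genes of 6 cell types in each library, by group (low and high, BF BSHlow and BF BSHhigh; 2 w, 2-week colon; NT, non-tumor; T, tumor). Points are libraries and bars are group medians. B cell and smooth muscle sums both have their highest group medians in non-tumor colon, where smooth muscle reached 1512 to 8468 CPM, against 7.08 to 343 CPM in the other tissues. In tumors the follicular dendritic cell sum is mostly Clu and Mfge8 (means of 446 and 176 CPM). The plasma cell sum there is mostly Sdc1 and Xbp1 (564 and 170 CPM). Both sums therefore need not follow the cells they are named for.

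Tumors were then set against non-tumor colon of mice with the same bacterium, both at 12 weeks. In BSHlow mice 8 of 9 members were lower in tumors, against 19.5% of 16454 genes, with a median log2 fold change of -5.47. In BSHhigh mice the same 8 members were lower, against 14.8% of genes, with a median of -4.24. No member was higher in tumors of BSHlow (16.7% of genes) or BSHhigh mice (14.6%), and the member that was not called in either was Ccr7. For all 8, every tumor library lay below every non-tumor library in both BSHlow mice (27.7% of genes were lower without overlap) and BSHhigh mice (29%). Higher without overlap were 29.3% and 32.2% of genes and no member.

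**Figure D3:**
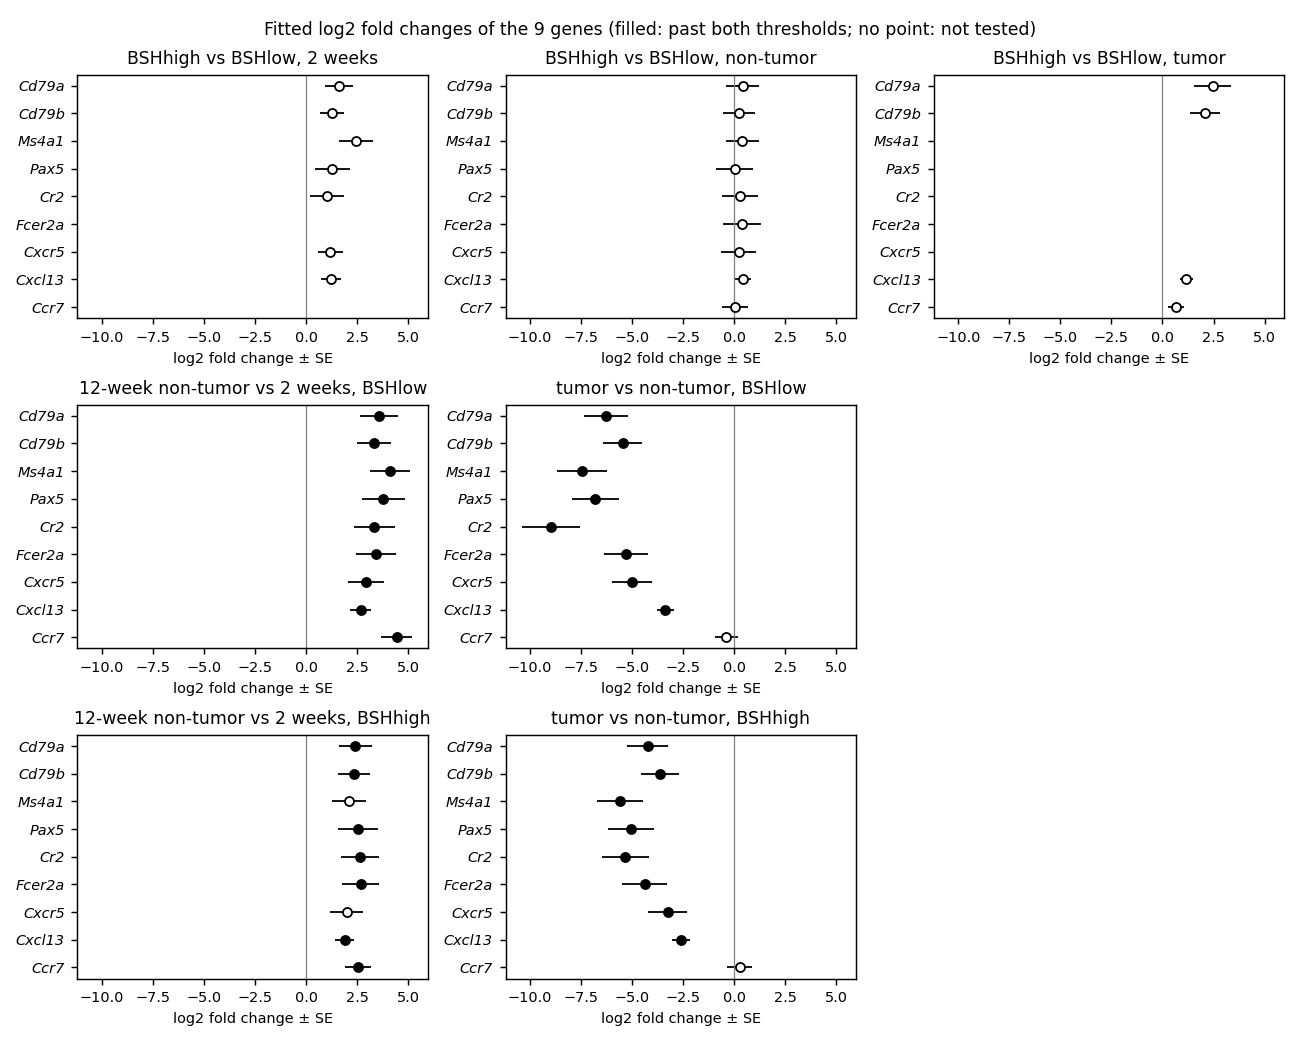
Log2 fold changes of the members in 7 comparisons, as points with their standard errors, from edgeR. Filled points passed both thresholds, open points did not, and a member without a point was not tested. The tumor panels show 8 filled points below 0 and Ccr7 near 0.

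In BSHlow mice Cr2 fell furthest. It measured 26.7, 21.5, 14.1 and 1.35 CPM in BSHlow non-tumor colon and 0.0491, 0, 0.0477 and 0 CPM in BSHlow tumors, where the whole group gave 2 counts against 965 in non-tumor colon. The ratio of pooled shares was 0.00194, with an exact 95% interval of 0.000234 to 0.00702 that covers counting error only. In BSHhigh mice it measured 6.31, 6.72, 51.5 and 12.5 CPM in non-tumor colon and 1.24, 0.134 and 0.0953 CPM in tumors (log2 fold change -5.33, SE 1.16, adjusted p = 0.0014).

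Ms4a1 gave no count in 2 of the 4 BSHlow tumors and 8 counts in all 4, against 1110 in non-tumor colon. Its log2 fold change was -7.46 (SE 1.20, adjusted p = 8.6e-05) in BSHlow and -5.59 (SE 1.13, adjusted p = 0.000819) in BSHhigh mice, where its estimate lay below that of Cr2 by less than the SE. The receptor chains fell by less, Cd79a by 6.27 and Cd79b by 5.47 on the log2 scale in BSHlow mice, and by 4.24 and 3.64 in BSHhigh mice. Pax5 fell by 6.81 and 5.05, Fcer2a by 5.32 and 4.39, and Cxcr5 by 5.0 and 3.27.

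Cxcl13, the stromal chemokine, fell least among the 8. In BSHlow tumors it measured 1.03, 2.51, 1.67 and 1.61 CPM, against 11.9 to 25.4 CPM in non-tumor colon (log2 fold change -3.39, SE 0.41, adjusted p = 6.12e-06). In BSHhigh tumors it measured 3.88, 4.60 and 3.15 CPM, against 12.6 to 38.5 CPM in non-tumor colon (-2.62, SE 0.43, adjusted p = 0.000161). Without the third BSHhigh non-tumor library the members' median in BSHhigh mice was -2.91 in place of -4.24, and 8 members were still called. With limma-voom 6 of the 8 passed in BSHhigh mice, Pax5 (adjusted p = 0.0578) and Cxcr5 (adjusted p = 0.0561) falling short.

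Ccr7 stood apart from the others. It measured 7.11, 4.18, 4.02 and 1.23 CPM in BSHlow non-tumor colon and 2.21, 1.85, 4.48 and 4.05 CPM in BSHlow tumors. In BSHhigh mice the values were 2.12, 2.74, 9.88 and 1.94 CPM in non-tumor colon and 3.67, 6.56 and 4.81 CPM in tumors. Tumor and non-tumor libraries were interleaved, with log2 fold changes of -0.40 (SE 0.56, 95% interval -1.50 to 0.71, adjusted p = 0.554) in BSHlow and 0.25 (SE 0.60, interval -0.92 to 1.43, adjusted p = 0.741) in BSHhigh mice. Without the third BSHhigh non-tumor library the latter was 1.14 (adjusted p = 0.077). Its order of groups was BSHhigh tumors (5.02 ± 1.46 CPM, n = 3), BSHhigh non-tumor, BSHlow non-tumor and BSHlow tumors (3.15 ± 1.31 CPM, n = 4), all overlapping with their neighbour, and then the 2-week groups, which lay below the 4 BSHlow tumors without overlap.

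The B cell list fell in tumors with the members. In BSHlow mice 22 of 25 genes were lower and none higher, among them the BAFF receptor Tnfrsf13c (-6.80) and Fcmr (-6.03). In BSHhigh mice 17 of 25 were lower, again with Tnfrsf13c (-4.91) and Ighd (-4.40) among the furthest. The 18 follicle signals were mixed. In BSHlow mice 12 were lower and 2 higher, the latter being Tnf (2.34) and Cxcr4 (1.16), named after their values were seen. Ltb, a lymphotoxin chain needed for follicles to form, fell by 2.19 (SE 0.64, adjusted p = 0.0077). In BSHhigh mice 5 were lower and 1, Tnf (2.22), higher, and Ltb had a log2 fold change of -0.50 (adjusted p = 0.538).

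Ccl19, a ligand of Ccr7, gave no count in any BSHlow tumor and 195 counts in BSHlow non-tumor colon, which was at least 69.5-fold higher when the tumors are set at 3 counts over the group. In the BSHhigh tumors it measured 0.310, 0.134 and 0.334 CPM. Smooth muscle markers also fell with the members, 6 of 6 in both BSHlow (median -5.37) and BSHhigh mice (median -4.51), with summed levels of 117 to 343 CPM in tumors. T cell markers did so less, with 3 of 10 lower and 1 higher in BSHlow mice and none lower and 2 higher in BSHhigh mice. Macrophage markers had 1 of 8 lower in BSHlow mice, and 1 lower and 1 higher in BSHhigh mice. The part of the tissue layers sampled in the members' difference was not tested.

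BSHhigh was compared with BSHlow within each tissue to ask what bacterial bile salt hydrolase changed. In tumors 4 of the 9 members had enough counts for the test, and none was called. The background was small, since 0.463% of 15325 genes were called higher and 0.0131% lower. At an unadjusted p under 0.05 there were 3 members, Cd79a, Cd79b and Cxcl13. Cd79a and Cd79b entered the test through their counts in the BSHhigh tumors, which favoured a higher level there from the start. Their differences, and any median that holds them, are given as a description. DESeq2 called 1 member, Cxcl13 (adjusted p = 0.0287), and limma-voom none.

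Cd79a measured 0.196, 0.103, 1.10 and 0.0977 CPM in BSHlow tumors and 4.14, 0.804 and 1.43 CPM in BSHhigh tumors. The third BSHlow tumor reached into the BSHhigh range, and the log2 difference was 2.47 (SE 0.91, adjusted p = 0.298). Cd79b measured 0.540, 0.0513, 0.858 and 0.342 CPM in BSHlow and 3.36, 1.03 and 1.43 CPM in BSHhigh tumors, without overlap (log2 difference 2.08, SE 0.72, adjusted p = 0.276). Cxcl13, also without overlap, differed by 1.17 (SE 0.33, adjusted p = 0.172) and Ccr7 by 0.66 (SE 0.38, adjusted p = 0.533).

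The other 5 members had too few counts to pass the filter. Cr2 gave 24, 3 and 2 counts in the BSHhigh tumors and 1, 0, 1 and 0 in the BSHlow tumors, a ratio of pooled shares of 18.5 with an exact 95% counting interval of 4.68 to 160. Most of these counts came from tumor a. Without the filter its log2 difference was 4.01 (adjusted p = 0.201), and those of Ms4a1, Cxcr5, Pax5 and Fcer2a were 2.32, 1.97, 1.80 and 1.33. Of the 4 members tested, Cd79b and Cxcl13 were higher in every BSHhigh tumor than in every BSHlow tumor, as were 7.93% of all genes tested, and none was lower in every one (3.89% of genes tested). For Cd79b, which passed the filter through the BSHhigh tumors, this is a description and not support. Cr2, which is outside that background, was also higher in every BSHhigh tumor. A two-sided exact permutation test on single members gave p = 0.0571 for Cd79b, Cxcl13 and Cr2 alike, in a design whose smallest p is 0.0286, and 0.386 after adjustment over 27 such tests.

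Tumor a was the highest BSHhigh tumor for 7 of 9 members, as it was for 38.2% of 16691 genes. The exceptions were Cxcl13 and Ccr7, where tumor b was highest. The 7 members that mark B cells (all but Cxcl13 and Ccr7) summed to 0.537 to 3.15 CPM in BSHlow and 3.08 to 12.9 CPM in BSHhigh tumors, so these ranges overlapped. Markers of several other cell types stood in the same direction. T cell markers were higher in estimate for 10 of 10 genes (median 1.97, none called), with summed levels of 12.7 to 28.4 CPM in BSHlow and 46.2 to 60.3 CPM in BSHhigh tumors. Of the 25 genes on the B cell list 18 passed the filter, most of them on low counts, and none was called. Of the 18, 15 had estimates above 0 (median 1.07), a description because low counts can pass through the BSHhigh tumors. The whole list summed to 146 to 163 CPM in BSHlow and 168 to 214 CPM in BSHhigh tumors. Most of that sum was Blnk and Ralgps2, with means of 61.1 and 68.1 CPM over the tumors. Their log2 differences were 0.40 and -0.31, so the sum says little about the other genes. Epithelial markers had 8 of 9 estimates above 0 (median 0.16) and 1 called, the chloride exchanger Slc26a3 (log2 difference 6.25, SE 0.98, adjusted p = 0.0481). The differentiation keratin Krt20 (3.38, adjusted p = 0.0558) and the gut transcription factor Cdx2 (3.54, adjusted p = 0.174) had larger estimates than the members tested, and these 3 epithelial genes were named after their values were seen. All 6 smooth muscle estimates were above 0 as well (median 0.65, none called). The part of these cell types in the members' differences was not tested.

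Among the follicle signals 1 of 16 tested genes passed in tumors, Madcam1, an adhesion molecule of gut vessels and follicle stroma. It measured 0.981, 0.462, 0.524 and 0.488 CPM in BSHlow and 6.62, 4.06 and 3.48 CPM in BSHhigh tumors (log2 difference 2.91, SE 0.39, adjusted p = 0.0365). Ltb (1.83, adjusted p = 0.0664) and Tnfsf13b, the B cell survival factor BAFF (1.61, adjusted p = 0.061), lay just outside the threshold. Plasma cells, the antibody-secreting end of the B cell lineage, were read from 9 genes, of which Jchain, the joining chain of IgA and IgM, was called. Jchain measured 3.04, 0.820, 3.91 and 0.0977 CPM in BSHlow and 87.6, 86.7 and 116 CPM in BSHhigh tumors (5.60, SE 0.70, adjusted p = 0.0343). Igha, the IgA heavy chain, differed by 5.53 (SE 0.91, adjusted p = 0.0511). Within a library there were 21.2 to 108 Jchain counts per Cd79a count in BSHhigh tumors and 1 to 15.5 in BSHlow tumors, without overlap. The BSHlow ratios rest on 2 to 23 Cd79a counts, and the lowest on 2 counts of each gene.

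In the 12-week non-tumor colon BSHhigh and BSHlow mice were close. No member was called and none passed an unadjusted p of 0.05, in a comparison in which edgeR called 0 of 14933 genes (145 higher and 68 lower at an unadjusted p under 0.05), limma-voom none and DESeq2 48 higher and 14 lower. For no member did the groups separate (3.23% of genes were higher and 2.15% lower without overlap). The members' median was 0.28, from 0.01 (Pax5) to 0.42 (Cxcl13). The intervals were wide, for Cd79a from -1.18 to 2.00 on the log2 scale. For this gene a difference of more than 1 on that scale, in either direction, lay inside the interval. The direction depended on 1 library. Without the third BSHhigh library, the highest for all 9 members, 8 of 9 log2 differences turned negative, from -0.65 (Cd79a) to -1.24 (Pax5), and Cxcl13 remained at 0.08.

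At 2 weeks 7 of the 9 members had enough counts for the test of BSHhigh against BSHlow, and none was called. Over all genes edgeR called 1, or 0.00727% of 13752. Ms4a1 measured 2.65, 0.250, 0.379 and 0.844 CPM in BSHlow and 5.72, 12.1, 0.742 and 4.73 CPM in BSHhigh mice (log2 difference 2.45, SE 0.82, adjusted p = 0.66). It was among 3 members at an unadjusted p under 0.05, with Cd79a (1.59) and Cxcl13 (1.23), and neither DESeq2 nor limma-voom called a member. For all 9 members the first BSHlow library lay above the third BSHhigh library, so no member separated the groups (2.09% of genes were higher and 1.54% lower without overlap).

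Whether the BSHhigh difference itself changed with tissue or time was tested by interaction terms. The difference in tumors exceeded that in non-tumor colon in estimate for 9 of 9 members (median 1.76), with none called, none at an unadjusted p under 0.05, and none by DESeq2 or limma-voom. The background was 0.972% of 16454 genes above and 0.00608% below 0. Cr2 had the largest estimate, 3.65 (SE 2.12, adjusted p = 0.666), and Cxcl13 one of 0.76 (SE 0.56, adjusted p = 0.765). Jchain passed, at 5.53 (SE 1.09, adjusted p = 0.026). So did 2 of 9 epithelial markers, Slc26a3 (6.82, adjusted p = 0.00595) and Krt20 (3.40, adjusted p = 0.0191). Between 12-week non-tumor and 2-week colon the difference of differences was below 0 for all 9 members (median -0.98). Again none passed, none had an unadjusted p under 0.05, and edgeR called 0 of 15532 genes (222 above and 153 below 0 at an unadjusted p under 0.05), limma-voom none and DESeq2 20 above and 9 below 0.

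In the groups without tumors the members rose and fell together. In BSHhigh non-tumor colon the third library was the highest for 9 of 9 members, as it was for 19.5% of 16691 genes. In BSHlow non-tumor colon the fourth library was the lowest for 9 of 9 (32.6% of genes). At 2 weeks the second BSHhigh library was the highest for 9 of 9 (25.0% of genes) and the third the lowest (27.0%). The second BSHlow library was the lowest for 9 of 9 (29.3% of genes). In tumors, where most members had few counts, no library was the highest or the lowest for all 9. The third BSHlow tumor was the highest for 6 of 9 (21.4% of genes), and in BSHhigh mice tumors b and c were each the lowest for 4 (31.9% and 33.1% of genes). The spread this made was wide, since Cd79a varied 15.8-fold among BSHlow non-tumor libraries and Cxcl13 only 2.14-fold.

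**Figure D4:**
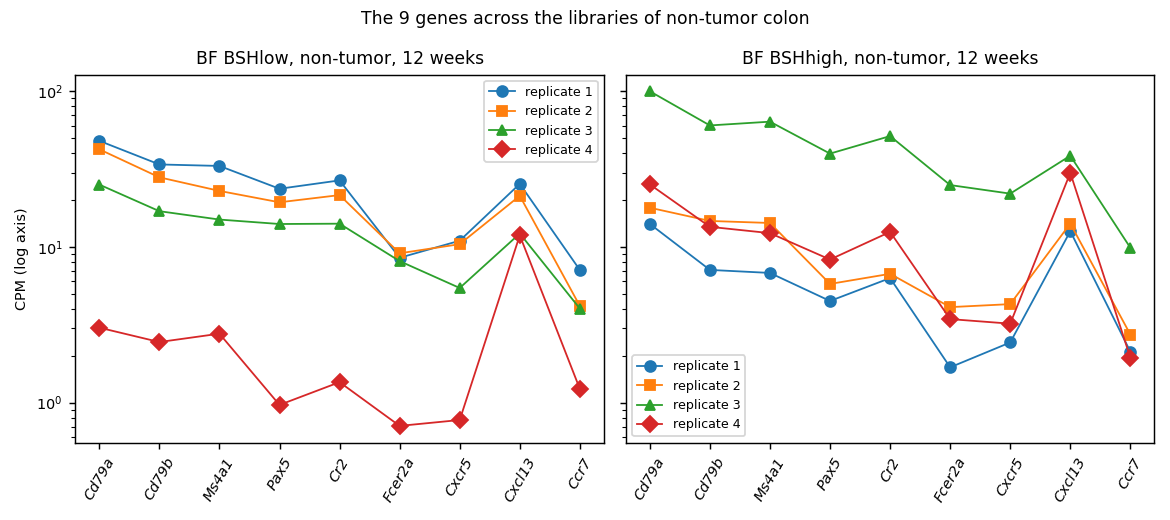
CPM (log axis) of the 9 members in each of the 4 BSHlow and 4 BSHhigh non-tumor libraries, with 1 line per library. The fourth BSHlow library is lowest and the third BSHhigh library highest for all 9 members, and Cxcl13 is the member on which the lines come closest in the BSHlow panel.

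Over the 16 libraries without tumors, after taking each group's mean away, log2 levels of pairs of members correlated with r from 0.65 (Ccr7 with Cxcl13) to 0.98 (Cd79a with Cd79b). These values are given as a description, since the libraries share depth and tissue sampling across genes. Of 14049 genes with a mean of at least 1 CPM, the 10 outside the set whose pattern was most like the members' mean included Cd37, H2-DMb2, Ighm, Bank1, Fcrla, Cd22, Tnfrsf13c, Btla and Siglecg. Their r ran from 0.96 to 0.97. By rank correlation the places of these 10 ran from 1 to 28. Cxcl13 had the lowest likeness among the members (r = 0.83), followed by Ccr7 (0.91).

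**Figure D5:**
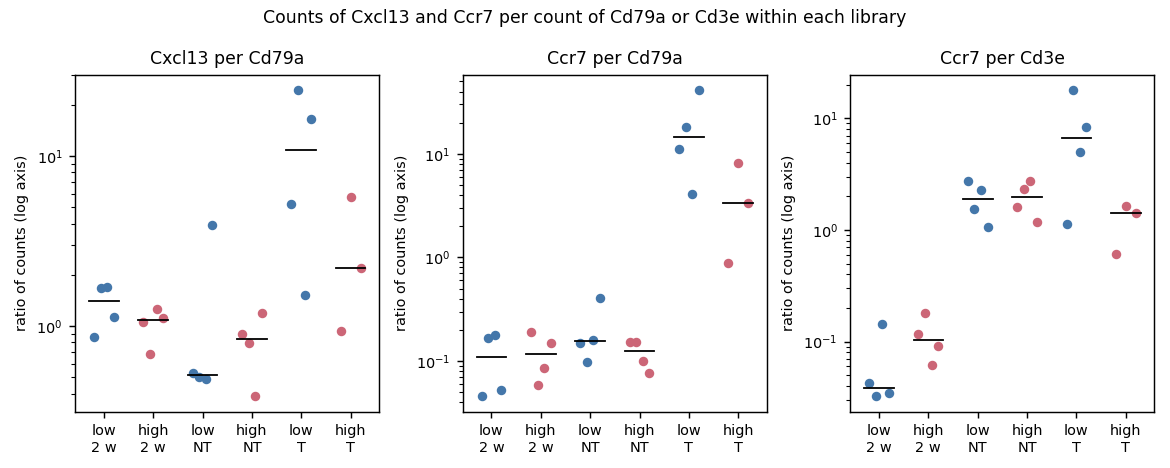
Ratio of counts within each library (log axis) for Cxcl13 per Cd79a, Ccr7 per Cd79a and Ccr7 per Cd3e, by group (labels as in the plot of marker sums). Points are libraries and bars are group medians. Ccr7 per Cd3e lies between 0.0323 and 0.182 at 2 weeks, on 1 to 14 Ccr7 counts per library, and at 0.612 or above in both 12-week tissues.

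Ratios of counts within a library do not depend on scaling, and they are given here as a description. Cd79a and Cd79b, the paired receptor chains, stood in a ratio of 1.22 to 1.97 counts in the 8 non-tumor libraries, of 0.75 to 1.72 at 2 weeks, and of 0.286 to 2 in BSHlow and 0.783 to 1.23 in BSHhigh tumors. Cxcl13 stood at 0.386 to 1.19 counts per Cd79a count in BSHhigh non-tumor colon and 0.938 to 5.72 in BSHhigh tumors. In BSHlow mice it stood at 0.485, 0.503, 0.529 and 3.91 in non-tumor colon, the last in the fourth library, and at 5.25, 24.5, 1.52 and 16.5 in tumors. Tumor and non-tumor ranges thus overlapped for this ratio in both BSHlow and BSHhigh mice. The tumor ratios rest on 2 to 23 Cd79a counts in BSHlow and 18 to 80 in BSHhigh mice.

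Ccr7 against the T cell marker Cd3e set the 2-week colon apart from both 12-week tissues. The ratio was 0.0323 to 0.143 in BSHlow and 0.0612 to 0.182 in BSHhigh colon at 2 weeks. It was 1.06 to 2.74 and 1.18 to 2.76 in non-tumor colon, and 1.13 to 18 in BSHlow and 0.612 to 1.65 in BSHhigh tumors. No 2-week library reached a 12-week one. The 2-week ratios rest on 1 to 3 Ccr7 counts in BSHlow and 3 to 14 in BSHhigh libraries. The tumor ratio of 18 rests on 2 Cd3e counts. Cd3e itself measured 1.99 to 7.93 CPM at 2 weeks and 1.16 to 3.57 CPM in non-tumor colon.

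Genes listed for germinal centers, where B cells mature in follicles, did not follow the members as a list. Some stood far above the B cell genes. Rgs13 averaged 20.7 CPM at 2 weeks, where Cd79a averaged 4.96 CPM. Basp1 averaged 72.8 CPM in tumors, where Cd79a averaged 1.12 CPM. Which cells made them was not tested, so the list cannot show how germinal center B cells changed. Of 11 genes 8 were tested between 12 and 2 weeks, with 4 higher and 1, Rgs13 (-2.67), lower in BSHlow mice, and 2 higher and 1, Rgs13 (-2.79), lower in BSHhigh mice. In tumors 3 were lower and 2 higher in BSHlow mice, and 2 lower and 2 higher in BSHhigh mice. Bcl6, a germinal center regulator that epithelium and other cells also make, measured 9.05 to 21.6 CPM in non-tumor colon and 15.7 to 27.4 CPM in tumors. Of 7 genes of the epithelium over follicles, 4 were higher and 1, Ccl9 (-1.18, named after its value was seen), lower at 12 weeks in BSHlow mice, and 5 were higher in BSHhigh mice. Gp2, a receptor of M cells, was among the higher ones (3.33 and 2.38). In tumors the list was split, with 2 higher and 3 lower in BSHlow mice and 2 higher and 2 lower in BSHhigh mice. Gp2 (-3.22 and -1.99) and the transcription factor Spib (-4.91 and -3.40), which is also on the B cell list, fell, while Tnfrsf11b, a decoy receptor for RANKL, rose by 5.56 and 5.30 and Tnfaip2 by 1.70 and 1.92.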

How the data were processed

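RNA of colon normal, non-tumor and tumor tissue was sequenced in 23 libraries. Per the labels and the study's methods the authors trimmed reads with cutadapt, aligned them with STAR to mm10, marked duplicates with Picard and deposited expected counts for every gene from RSEM (estimated read numbers, not normalized). The labels name a total RNA kit and colonization 2 times a week, the methods an mRNA kit and a shorter interval. Here the expected counts were rounded to whole numbers (4.24% of values were not whole), and 1 row with a count cell that held no number was left out.

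Tests used edgeR 4.0.16 (glmQLFit, glmQLFTest, TMM, filterByExpr) in R 4.3.3 on all genes that passed the filter, with Benjamini-Hochberg adjustment, and a gene passed with an adjusted p below 0.05 and a fold change of more than 1 on the log2 scale in either direction. Tissue comparisons and their interaction were fitted on 15 libraries, time comparisons on 16, and BSHhigh against BSHlow on the libraries of 1 tissue. SE was taken from the fold change and its F statistic. The procedure was tested on simulated data. CPM used TMM factors over all libraries, and CPM per kilobase used merged GENCODE M21 exon bases, to which all 55449 IDs matched. Single members were tested by two-sided exact permutation of mean log2 CPM (prior count 2). Total counts of 12401388 to 17903008 per library bound the precision, and intervals of pooled counts are exact and cover counting error only. Alternatives were DESeq2 1.42.0, limma-voom (limma 3.58.1), other scalings and filters, all 23 libraries in 1 fit, dropping each library in turn and a block for the replicate number.

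The members and gene lists were chosen with earlier results of these data known, and no list was tested as a set. Named were all members, fixed anchor genes, the called list genes with at least 1 CPM and the largest fold changes (at most 4 per list and comparison), and the 10 genes most like the members. Some list genes were also named for their level within a sum. No protein sequence was used here, and 3 of the named genes are not reported here.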

Additional observations from a re-analysis of the deposited data

Results flagged for a closer look

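Within groups of 4 libraries, a library that stood far from the other 3 was looked for in 45 sets of 1 member and 1 group, by Dixon's ratio (the gap to the nearest library over the whole range, against the 95% critical value for 4 values). The lowest library stood apart in 2 sets, both in BSHlow non-tumor colon and both in replicate 4. They were Fcer2a (0.953), with 0.710 CPM against 8.11 to 9.10 CPM in the other 3, and Pax5 (0.832), with 0.968 CPM against 14 to 23.6 CPM. Chance flags about 1 in 20 such sets. Fcer2a and Pax5 stayed called in the BSHlow comparisons of tumor with non-tumor and of 12 with 2 weeks when this library was left out.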

How the results depend on the processing

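Each group held 3 or 4 libraries, and in tumors 5 members gave too few counts for the test of BSHhigh against BSHlow. Of 1284 member fold changes under alternatives, 1217 kept their direction and side of the threshold. DESeq2 called 1 member in the tumor comparison of BSHhigh with BSHlow, and limma-voom called 2 in each comparison of 12 with 2 weeks. Over all genes the tools called 71 (edgeR), 575 (DESeq2) and 40 (limma-voom) higher in BSHhigh tumors, and 160, 377 and 0 above 0 in the tissue interaction. With 1 library left out, the median of the members tested ran from 1.30 to 2.37 in that tumor comparison (2.37 without tumor b), from -5.15 to -2.91 for tumor against non-tumor colon in BSHhigh mice, and from 1.01 to 3.01 for the tissue interaction (-2.91 and 3.01 without the third BSHhigh non-tumor library). The count of members higher at 12 weeks in BSHhigh mice ran from 2 to 9. Total count scaling put Cxcl13 in BSHhigh tumors at 4.74 CPM in place of 3.87 CPM.

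BSHhigh against BSHlow in non-tumor colon changed sign with single libraries. Over libraries left out, the log2 difference ran from -0.65 to 0.75 for Cd79a, -0.80 to 0.61 for Cd79b, -0.74 to 0.85 for Ms4a1, -1.24 to 0.36 for Pax5, -0.92 to 0.66 for Cr2, -1.11 to 0.73 for Fcer2a, -1.07 to 0.54 for Cxcr5 and -0.87 to 0.42 for Ccr7, and limma-voom put Ccr7 at -0.051. Interaction estimates also turned, that of tissue for Fcer2a (-0.0056 to 2.41, below 0 without tumor a) and those of time for Cr2 (-1.92 to 0.17) and Fcer2a (-2.23 to 0.13), above 0 without the second BSHhigh 2-week library. The cause was not tested.

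Same-numbered libraries correlated at -0.173 to 0.26 in their deviations from group means. Differently numbered libraries were not set beside them, so these values cannot show whether the numbers pair libraries. With the replicate number as a block, 5 members in place of 7 were higher at 12 weeks in BSHhigh mice, and Pax5 (-0.032) and Ccr7 (-0.11) turned sign in non-tumor colon. No paired analysis was possible because the BSHhigh tumor columns carried no numbers, for comparisons with those tumors.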

Other observations

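Plasma cell genes fell in tumors together with the members. Of 9 genes, 5 were lower in BSHlow tumors than in BSHlow non-tumor colon, led by Jchain (log2 fold change -8.51), Igha (-8.28) and Mzb1, a chaperone for antibody assembly (-6.28). In BSHhigh mice 5 were lower as well, among them Mzb1 (-3.59) and Jchain (-2.98). Prdm1 (2.19 and 1.73) and Sdc1 (1.53 and 1.48) were the 2 that rose in tumors of BSHlow and BSHhigh mice, and both are also made by epithelium.

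Follicular dendritic cell genes did not all follow Cxcl13 and Cr2, which are 2 of the 9 genes on that list. Enpp2, an enzyme that makes the lipid signal LPA, fell in tumors by 3.23 in BSHlow and by 1.69 in BSHhigh mice, and Clu, which many cells make, rose by 1.69 in BSHhigh mice. Among 4 lymphatic endothelium genes Prox1 rose in tumors by 5.87 and 6.10, while Lyve1 had values of -0.78 (adjusted p = 0.059, edgeR) in BSHlow and -1.39 (adjusted p = 0.00768) in BSHhigh mice. Pdpn rose by 1.67 and 1.40, and Flt4 was not called (0.24 and -0.04). The list thus did not move as 1. Over all tumors Prox1 averaged 287 CPM, against 10.7 for Lyve1 and 8.10 for Flt4. Which cells made Prox1 was not tested.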
